A study of Danio rerio with 17 samples.

Results

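ica1 and vps52 encode proteins of vesicle traffic, and both were chosen because their array signal was lower in zebrafish brains after domoic acid (DA) than after vehicle. They are 2 of the 8793 genes that the array's annotation names singly, and 4 of the 15502 probe sets tested read them, 2 for each gene. The genes were chosen by their measured DA minus control differences at the 3 times, and all 4 probe sets were taken by their platform symbol. That difference is therefore given below as a description, with no test.

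The study injected adult wild-type fish of the AB strain, at 1 year of age, into the body cavity with DA or with the same volume of the buffer PBS. DA is a marine algal toxin that activates AMPA and kainate receptors, the fast receptors for glutamate. Fish received 1.1 ± 0.2 µg of DA per g of body weight and showed signs of intoxication. Brains were taken 24, 48 or 168 h later, and each RNA sample was a pool of 3 to 4 whole brains, so a single fish cannot be seen. The 6 groups were DA and control at each time, with 3 arrays each except for 2 in the 48 h controls. The values are log2 expression from the Affymetrix Zebrafish Genome array. In whole-brain RNA, fewer cells that express a gene and less RNA per cell cannot be told apart.

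ICA1, first known as an autoantigen of pancreatic islets, is a BAR domain protein, a fold that binds curved membrane. In mammals it sits at the Golgi and on young secretory granules of neurons and endocrine cells, and it pairs with PICK1, a protein that binds AMPA receptor subunits and steers their traffic. VPS52 is a subunit of GARP, a complex that tethers vesicles arriving from endosomes at the trans-Golgi network. GARP also holds VPS51, VPS53 and VPS54, and the related complex EARP has VPS50 in place of VPS54. In the worm Caenorhabditis elegans, the ICA1 relative and EARP both act in the making of dense core vesicles, the carriers of neuropeptides.

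The 17 arrays looked alike, with correlations between pairs from 0.970 to 0.997, except in a few measures that touch the results below. The mean log2 value of 17 blank probe sets, a measure of background, was 5.74 on DA replicate 1 at 24 h and 4.94 to 5.18 on the 16 others. GAPDH probe sets at the 3′ end of the transcript exceeded those at its 5′ end by 4.63 on control replicate 3 at 24 h, and by 3.70 or less on each other array. The 18 brain markers measured (such as snap25a, gfap and mbpa) averaged between 11.4 and 11.7 on every array.

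ica1 was lower in DA brains at every time by its brighter probe set, Dr.19642.1.A1_at. At 24 h the control arrays read 7.93, 8.02 and 8.38 and the DA arrays 7.02, 7.03 and 6.37. At 48 h the controls read 7.87 and 7.83 and the DA arrays 7.09, 7.02 and 7.31. At 168 h the controls read 7.97, 7.31 and 7.97 and the DA arrays 7.67, 6.75 and 7.15. The groups did not overlap at 24 h or at 48 h. At 168 h they did, because DA replicate 1 lay above control replicate 2. Over all times, 8 of the 9 DA arrays lay below every control array of their own time.

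The ica1 difference was widest at 24 h, with a control mean of 8.11 ± 0.24 (SD, n = 3) and a DA mean of 6.80 ± 0.38 (SD, n = 3). This is a log2 change of -1.31 (SE 0.23), or 2.47-fold lower. At 48 h the control mean was 7.85 ± 0.03 (SD, n = 2) and the DA mean 7.14 ± 0.15 (SD, n = 3), a change of -0.71 (SE 0.26), or 1.63-fold lower. At 168 h they were 7.75 ± 0.38 and 7.19 ± 0.46 (SD, n = 3 each), a change of -0.56 (SE 0.23), or 1.48-fold lower. Averaged over the 3 times the change was -0.86 (SE 0.14), the fifth lowest of all probe sets, a rank that the choice of the gene favours. The 168 h value depended on single arrays, at -0.34 without DA replicate 2 of that time and -0.80 without DA replicate 1. The change at 24 h lay between -1.42 and -1.09 whichever array was left out.

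vps52 was lower in DA brains at every time by its brighter probe set, Dr.1598.1.S1_at. At 24 h the control arrays read 7.72, 7.65 and 7.33 and the DA arrays 7.07, 6.71 and 6.91. At 48 h the controls read 7.62 and 7.66 and the DA arrays 7.39, 7.10 and 7.52. At 168 h the controls read 7.46, 7.44 and 7.86 and the DA arrays 7.23, 6.74 and 6.84. The groups did not overlap at any of the 3 times, and all 9 DA arrays lay below every control array of their own time. Set against the controls of all times, 7 of the 9 DA arrays lay below all 8, and the exceptions were DA replicates 1 and 3 at 48 h.

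For vps52 the 24 h means were 7.57 ± 0.21 in controls and 6.90 ± 0.18 in DA (SD, n = 3 each), a change of -0.67 (SE 0.16), or 1.59-fold lower. The 48 h means were 7.64 ± 0.03 (SD, n = 2) and 7.33 ± 0.22 (SD, n = 3), a change of -0.31 (SE 0.18), or 1.24-fold lower. The 168 h means were 7.59 ± 0.24 and 6.94 ± 0.26 (SD, n = 3 each), a change of -0.65 (SE 0.16), or 1.57-fold lower. The vps52 change was thus about equal at the first and last time and smaller between them, and its mean over the times was -0.54 (SE 0.10). That mean was in place 69 from the lowest of 15502 probe sets, a rank that the choice of the gene favours. The 48 h value was -0.19 without DA replicate 2 of that time.

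**Figure D1:**
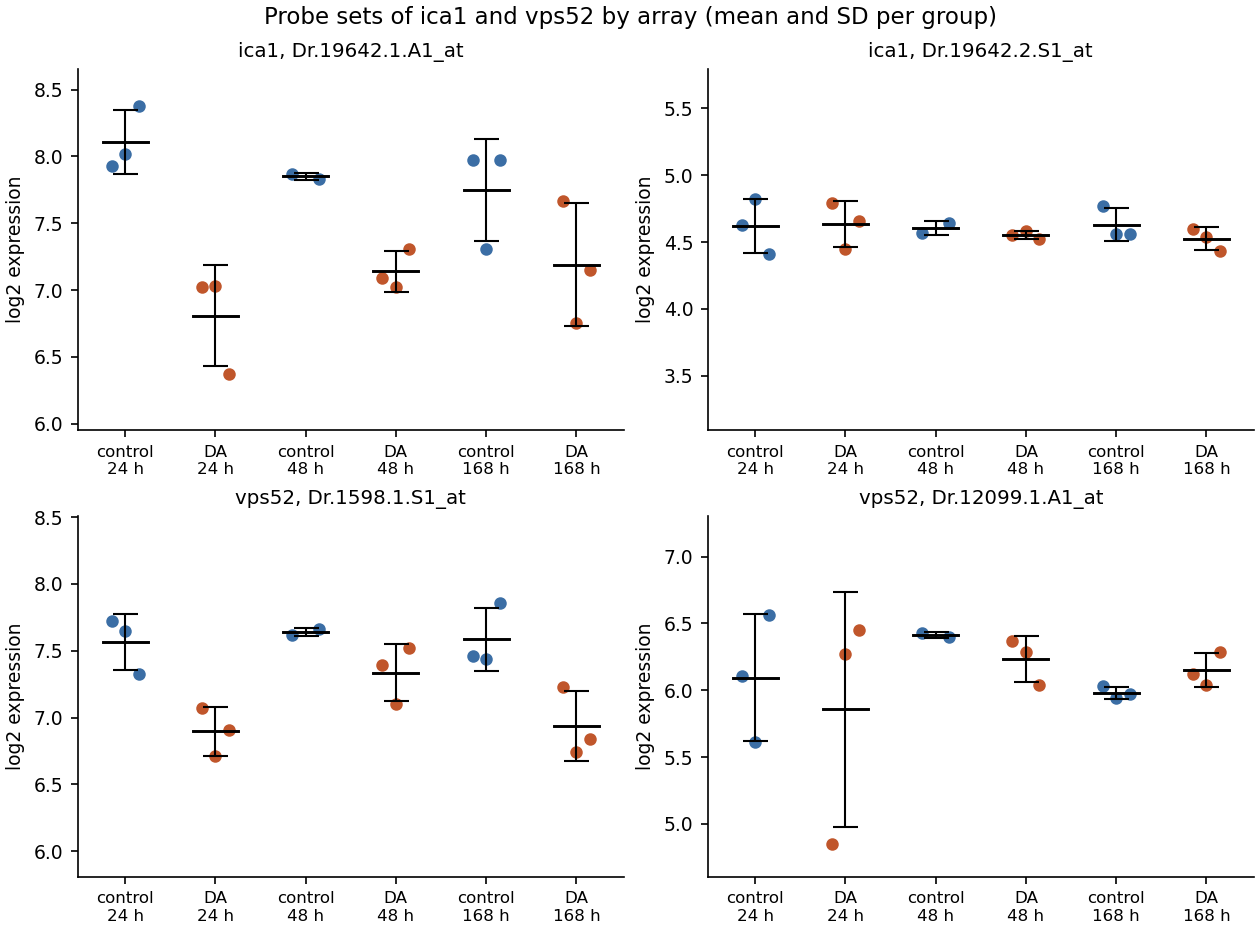
Log2 expression of each of the 4 probe sets on each array (points, blue for control and orange for DA), by treatment and time, with the mean and SD of each group in black. The left panels show the brighter probe set of each gene, lower in DA at each time. The right panels show the dimmer one, with no common direction over the times for either gene.

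Separation of this kind has a background, which is given here for each time. At 24 h every DA array lay below every control array for 7.92% of all probe sets, at 48 h for 14.0% and at 168 h for 7.02%. At both 24 h and 48 h, as for ica1, it did so for 2.02%. At all 3 times, as for vps52, it did so for 20 probe sets, or 0.129%. Over all times pooled every DA array lay below every control array for 0.0258%, which include neither gene. Because these contrasts led to the choice of the genes, nothing is read from the shares. A total of 5 probe sets passed limma's test at 24 h after Benjamini-Hochberg adjustment over all probe sets, 0.0323%, and 0 passed at 48 h, at 168 h or for the mean over the times.

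The dimmer probe set of each gene gave a different reading. For ica1, Dr.19642.2.S1_at read 4.41 to 4.82 on the control arrays and 4.43 to 4.79 on the DA arrays. On all 17 arrays it was below the mean of the blank probe sets, so it gives no measure of an ica1 transcript. Its mean change over the times was -0.05 (SE 0.07). For vps52, Dr.12099.1.A1_at read 5.61 to 6.56 on the control arrays, with a median of 6.07. On the DA arrays it read 4.85 to 6.45, with a median of 6.27. Its change was -0.24 (SE 0.31) at 24 h, -0.18 (SE 0.34) at 48 h and 0.17 (SE 0.31) at 168 h. Its groups overlapped at 24 h, while the DA arrays lay below both controls at 48 h and above all controls at 168 h. The order at 48 h was that of 14.0% of all probe sets, and the share for the order at 168 h was not counted. The lowest reading, 4.85, came from DA replicate 1 at 24 h, the array with bright blank probe sets, and without that array the 24 h change was 0.26. Across the 17 arrays the vps52 probe sets had a Pearson r of -0.03 and the ica1 probe sets one of 0.08, given as descriptions. The identifiers of the ica1 probe sets hold 19642.1 and 19642.2, and those of vps52 hold 1598.1 and 12099.1, which share no leading number. Which parts of the transcripts each probe set reads was not analysed here. The lower reading thus rests on a single probe set per gene.

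Arrays of the same group spread more than the median probe set for 3 of the 4 probe sets. The residual SD within groups was 0.32 for the brighter ica1 probe set and 0.21 for that of vps52, against a median of 0.16 over all probe sets. For the dimmer vps52 probe set it was 0.44, and for the dimmer ica1 probe set, which lay below the blank level, 0.13.

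The order of the group means of ica1 was control at 24 h, 48 h and 168 h, then DA at 168 h, 48 h and 24 h. Their means in that order were 8.11, 7.85, 7.75, 7.19, 7.14 and 6.80. Neighbours in this order overlapped in their arrays, except the controls at 24 h and 48 h, which differed by 0.26. The order of vps52 was control at 48 h, 168 h and 24 h, then DA at 48 h, 168 h and 24 h. The 3 control means lay between 7.57 and 7.64, and each neighbouring pair in the whole order overlapped. In both genes every control mean was above every DA mean, and the DA mean was lowest at 24 h.

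Between times the DA change of the 2 genes moved differently as measured, though neither pattern was tested. The ica1 change was smaller by 0.60 (SE 0.35) at 48 h and by 0.74 (SE 0.33) at 168 h than at 24 h. The vps52 change was smaller by 0.36 (SE 0.24) at 48 h, and at 168 h it differed from that at 24 h by 0.02 (SE 0.23). Over all probe sets the DA change differed between times at an unadjusted p under 0.05 for 6.26%, and at an adjusted p under 0.05 for 0, in limma.

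Time among the controls is a comparison without DA arrays. The same control arrays entered the DA minus control differences behind the choice of the genes, so it is not independent of that choice. Neither gene differed between the control groups past the threshold. For ica1 limma's F test gave an adjusted p of 0.766, and the controls at 168 h were at -0.36 (95% interval -0.86 to 0.14) from those at 24 h. For vps52 the adjusted p was 0.981 in limma, with 0.02 (95% interval -0.32 to 0.36) between the same times. Of all probe sets 62 passed this F test, 0.400%. The dimmer probe sets had an adjusted p of 0.994 (ica1) and 0.836 (vps52) in limma.

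Spike-in transcripts added at hybridisation also differed between some groups. At 24 h their mean was 10.39 to 10.96 on the control arrays and 9.49 to 10.56 on the DA arrays, and at 48 h it was 9.70 and 10.79 against 9.27 to 9.40. At 168 h the groups overlapped, with 9.55 to 9.71 in controls and 9.44 to 10.02 in DA. With this level as a covariate the ica1 changes were -1.08, -0.42 and -0.58 at 24, 48 and 168 h. The vps52 changes were then -0.53, -0.14 and -0.66. With the covariate both genes had smaller changes at 24 h than without it, and at 48 h smaller by over 1.5 times. At 168 h the changes were about as large, but the spike-in levels were close there, so the covariate could move them little. Since the spike-in level was lower on most DA arrays at 24 h and on all at 48 h, its part cannot be told apart from that of DA. The cause was not tested. With the GAPDH difference as a covariate the 24 h changes were -1.11 for ica1 and -0.76 for vps52.

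Markers of retina, lens and pineal, tissues that a brain sample can carry, were lower with ica1 and vps52 at 168 h. Of 20 measured, all 20 were lower in DA at that time, with a median change of -0.21 and a mean level of 5.73 to 5.90 on the controls and 5.37 to 5.51 on the DA arrays. With any 1 array of that time left out, 18 to 20 were lower. These levels lay close to the blank mean, which was 5.10 to 5.18 on the controls and 4.94 to 5.11 on the DA arrays. At 24 h all 20 were higher in DA, with a median of 0.22 and a level of 5.44 to 5.65 on the controls and 5.53, 5.63 and 6.48 on the DA arrays. The high array was DA replicate 1, and without it 10 were higher and 10 lower, with a median of 0.00. Its blank probe sets were bright too, at 5.74 against 4.94 to 5.18 on the other arrays. Without control replicate 1 the median at 24 h was 0.13, with 14 higher. At 48 h their level was 5.60 to 5.88 in controls and 5.53 to 5.92 in DA. Of 8 erythroid markers 7 were lower in DA at 48 h, with a median of -0.27 and a level of 7.21 and 7.22 in controls and 6.79 to 7.16 in DA. The 4 islet markers, measured because ICA1 is known from islets, averaged 5.43 to 6.21 over all arrays, and the 5 pituitary markers 5.01 to 5.66. Both lists were highest on DA replicate 1 at 24 h, where the pituitary level was below the blank mean. How much of these low levels is background was not tested. At 168 h 9 of 11 muscle markers were lower, with a median of -0.11 and a level of 5.82 to 5.84 in controls and 5.61 to 5.88 in DA. Of 10 leukocyte and microglia markers 8 were lower at that time, with a median of -0.04 and a level of 6.82 to 6.89 against 6.76 to 6.84. With 1 array of that time left out 5 to 8 of them were lower, the fewest without DA replicate 2, and the median ran from -0.10 to -0.03. The muscle median was -0.01 without DA replicate 3 of 168 h. Over all probe sets the median change was 0.01 at 24 h, 0.00 at 48 h and -0.02 at 168 h. The share of all probe sets lower in DA by any amount was not counted, so the marker counts have no background here. None of these markers passed in limma at any time. The part of these cells in the results for ica1 and vps52 was not tested.

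If the 2 genes varied together from pool to pool, arrays above their group mean for one gene would be above it for the other. Deviations from the group means leave out the DA difference. Over 17 arrays they had a Pearson r of 0.36 (exact permutation within groups, two-sided p = 0.285) and a Spearman rho of 0.22 (exact permutation p = 0.499). Adjusted over these 2 measures by Benjamini-Hochberg, both p-values were 0.499. The deviations had the same sign on 8 of the 17 arrays. Left out next were the arrays whose ica1 deviation lay farthest from the median deviation, DA replicate 1 at 168 h and DA replicate 3 at 24 h. Without them r was 0.17. The choice of the latter was close, since control replicate 2 and DA replicate 2 at 168 h had the same rounded deviation, -0.44. A shared variation within groups was not shown.

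**Figure D2:**
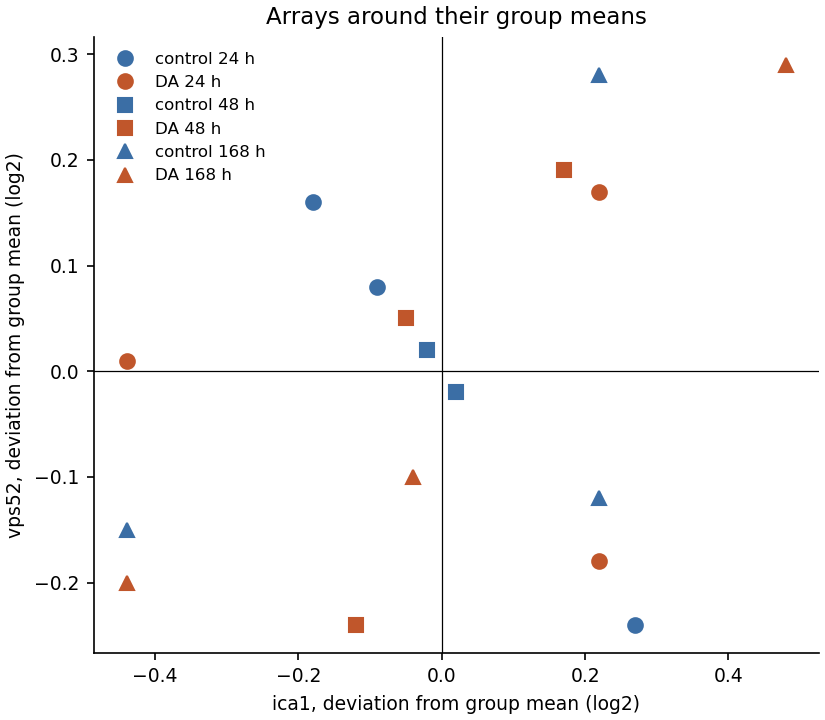
Deviation of each of the 17 arrays from its group mean, for ica1 (x axis) and vps52 (y axis) in log2 units, with colour for treatment and shape for time. The points scatter over all quadrants, with the same sign for both genes on 8 of 17 arrays.

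The genes nearest to each in pattern were found by Pearson r of log2 values over the 17 arrays, which includes the DA difference. For ica1 these were neff1, a neurofilament gene (r = 0.89), the deubiquitinase usp42 (0.88), ankrd28b (0.88), the sodium channel scn8aa (0.88) and the G protein subunit gnb1b (0.86). The change of neff1 was -1.36 (SE 0.27) at 24 h, -0.58 (SE 0.30) at 48 h and -0.42 (SE 0.27) at 168 h. That of scn8aa was -1.09 (SE 0.23), -0.48 (SE 0.26) and -0.37 (SE 0.23) at the same times. Both had their largest change at 24 h, as ica1 did. This was not particular to the ica1 set, since each gene named below as near vps52 also had its largest change at 24 h.

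For vps52 the nearest were arl6, a small GTPase of traffic to cilia (r = 0.93), the growth factor gene mstnb (0.92), the calcium pump atp2b1a (0.89), the chromatin remodeller atrx (0.89) and znf292a (0.88). The change of arl6 was -0.68 (SE 0.16) at 24 h, -0.15 (SE 0.18) at 48 h and -0.48 (SE 0.16) at 168 h. That of atrx was -1.30 (SE 0.29), -0.39 (SE 0.33) and -0.74 (SE 0.29). Both had their smallest change at 48 h, as vps52 did. So had usp42 of the ica1 set, at -0.27 (SE 0.24) at 48 h and -0.36 (SE 0.22) at 168 h. All 10 genes were lower in DA at each time, which their choice for likeness favours. The r of deviations from the group means, which leaves out the DA difference, was 0.62 to 0.82 for the 10. Their choice favours this as well, since the deviations are part of the r over the 17 arrays. ica1 and vps52 had an r of 0.75 with each other over the 17 arrays. vps52 was in place 54 of 8792 genes by likeness to ica1, and ica1 in place 48 by likeness to vps52. Both genes were chosen for a lower reading in DA, which favours this r and these places. Their r of deviations from the group means was 0.36, as given above. The arrays of all these genes are shared, so the values describe likeness only.

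**Figure D3:**
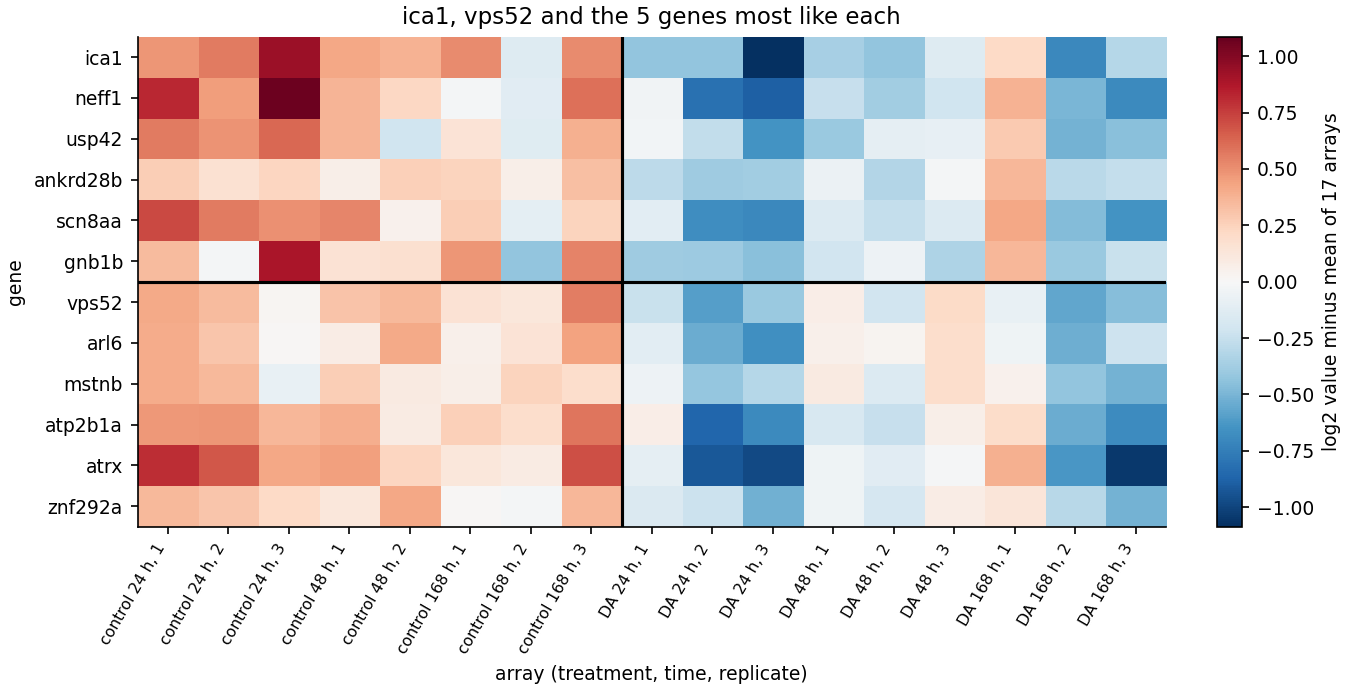
Log2 value minus the mean of the 17 arrays (colour scale) for ica1 and its 5 nearest genes above the line and vps52 and its 5 nearest below, with control arrays left and DA arrays right of the line. Most control arrays are above the mean and most DA arrays below it. DA replicate 1 at 168 h is above the mean for ica1 and below it for vps52.

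Of the other parts of the GARP and EARP machinery 3 were measured, and none passed in limma at any time or for the mean. vps53, another core subunit, read 9.32, 9.26 and 9.16 in the 24 h controls and 9.29, 9.32 and 9.57 in DA. At 48 h it read 9.62 and 9.61 in controls and 9.95, 10.21 and 10.05 in DA. At 168 h it read 9.24, 8.93 and 9.54 in controls and 9.66, 9.29 and 9.64 in DA. The DA arrays were above both controls at 48 h, and the groups overlapped at the other times. The share of all probe sets with DA above both controls at 48 h was not counted. Its mean change over the times was 0.30 (SE 0.09), opposite in direction to vps52 and short of the threshold in limma (adjusted p = 0.224, unadjusted 0.0032). At 24 h, when vps52 was at -0.67, both other genes were below 0. eipr1, a partner of EARP, read 7.88, 7.84 and 8.10 in controls and 7.47, 7.71 and 7.84 in DA at that time, a change of -0.26 (SE 0.10, adjusted p = 0.293 in limma, unadjusted 0.0215). It was at 0.18 (SE 0.12) at 48 h and -0.09 (SE 0.10) at 168 h. vps51, a further subunit of GARP, was at -0.13 (SE 0.10, adjusted p = 0.576 in limma) at 24 h. It was at 0.10 (SE 0.11) at 48 h and 0.14 (SE 0.10) at 168 h. Averaged over the times, eipr1 was at -0.06 and vps51 at 0.04 (SE 0.06 each). The genes vps50 and vps54 were looked for, but no probe set carried either as its single symbol.

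Of partners and relatives of ICA1 5 were measured. Averaged over the times, the BAR domain genes arfip1 and arfip2a were at -0.03 (SE 0.06) and -0.11 (SE 0.08). rab2a, a Golgi GTPase that binds ICA1 in mammals, was at 0.06 (SE 0.07). The GTPase gene arf5 was at 0.08 (SE 0.05) and grip2a, which encodes an AMPA receptor scaffold, at 0.01 (SE 0.11). At 48 h arf5 read 10.38 and 10.64 in controls and 10.82, 10.73 and 10.80 in DA, a change of 0.27 (SE 0.10, adjusted p = 0.931 in limma, unadjusted 0.0145). The DA arrays were above both controls there, an order whose share over all probe sets was not counted. At 24 h arf5 was at -0.01 and at 168 h at -0.04. None of the 5 passed in limma at any time or for the mean (adjusted p for the mean 0.827 to 0.992). The gene pick1 was looked for, but no probe set carried it as its single symbol.

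**Figure D4:**
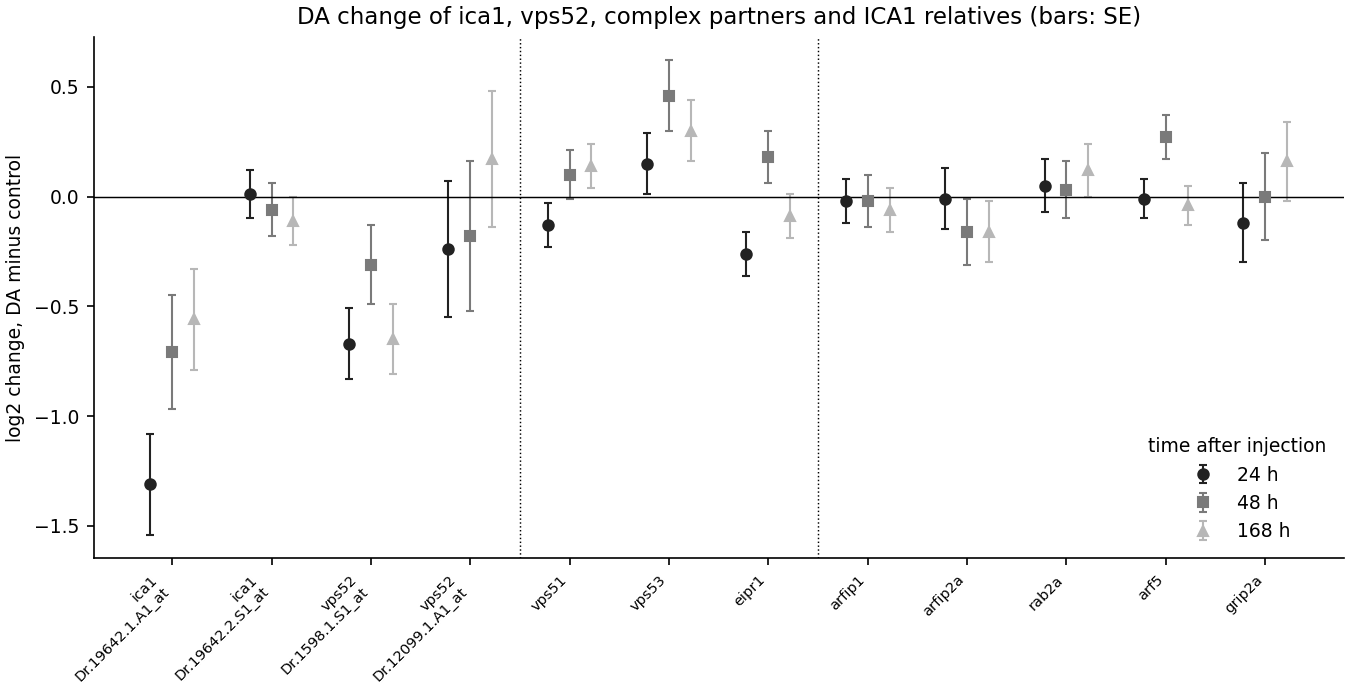
Log2 change, DA minus control, with its SE, at 24 h (circles), 48 h (squares) and 168 h (triangles). The 4 probe sets of ica1 and vps52 stand left of the first dotted line, the GARP and EARP genes between the lines, and the partners and relatives of ICA1 right of the second. The 3 changes of the brighter probe set of each gene are below 0, while vps53 is above 0 at each time.

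In all, 7 lists with 92 measured genes of vesicle traffic and DA's receptors, ica1 and vps52 left out and a gene of several lists counted once, were read in the same fit. They include the GARP and EARP genes and the ICA1 partners just described. In limma 0 of the 92 passed at 24, 48 or 168 h or for the mean over the times. At an unadjusted p under 0.05, 12 were lower and 2 higher at 24 h, against 7.91% lower and 5.53% higher of all probe sets. At 48 h 0 were lower and 3 higher (2.12% and 2.61% of all), at 168 h 1 was lower and 1 higher (1.81% and 1.21%), and for the mean 4 were lower and 1 higher (5.26% and 2.42%). The median change of the 92 was -0.06 at 24 h, against 0.01 over all probe sets, and 0.03 at 48 h against 0.00. It was 0.00 at 168 h, against -0.02 over all, and 0.00 for the mean, against 0.00. Among controls 0 of the 92 differed by time past the threshold, and 6 had an unadjusted p under 0.05 in limma, where 11.7% of all probe sets did.

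Of 23 genes listed for the return of cargo from endosomes, 12 were lower and 11 higher for the mean over the times, with a median of -0.01. The share of all probe sets lower for the mean was not counted. This count and those of the lists below thus have no background here. The list includes the return to the Golgi, the step at which GARP acts. snx27b, a sorting nexin that recycles receptors to the surface, was at -0.36 (SE 0.09, adjusted p = 0.141 in limma), and golga1, a golgin, at -0.12 (SE 0.08). The retromer genes vps35 and vps26a were at 0.11 (SE 0.05) and 0.12 (SE 0.07). Of 27 genes of other tethering complexes 16 were lower and 11 higher, with a median of -0.01. Here trappc2 was at -0.11 (SE 0.07), exoc7 at -0.14 (SE 0.09), golga5 at 0.15 (SE 0.09) and vps16 at 0.08 (SE 0.07). None of these passed in limma.

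Of 10 genes of dense core vesicles 4 were lower and 6 higher, with a median of 0.04. scg5, a chaperone of prohormone convertase, was at -0.19 (SE 0.08) and cpe, which trims prohormones, at -0.07 (SE 0.09). ptprn2, a membrane protein of the granule, was at 0.20 (SE 0.10) and scg3, a granin, at 0.09 (SE 0.08). Of 23 genes with BAR or F-BAR domains 14 were lower and 9 higher, with a median of -0.01. sh3glb1a was at -0.26 (SE 0.12), sh3glb2b at 0.16 (SE 0.07) and pacsin3 at 0.15 (SE 0.13). Of the receptors for DA, gria2a, gria2b and grik1a were at 0.04 (SE 0.21), 0.01 (SE 0.17) and -0.07 (SE 0.05) for the mean over the times. At 24 h they were at 0.52 (SE 0.34), 0.13 (SE 0.28) and -0.23 (SE 0.09). At 168 h gria2a was at -0.24 (SE 0.34) and gria2b at -0.15 (SE 0.28). These 3 were the ones measured of 14 AMPA and kainate receptor genes looked for, and none passed in limma.

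fcho2, an F-BAR gene that starts clathrin-coated pits, was nearest to the threshold among the 92 for the mean, at -0.40 (SE 0.08, adjusted p = 0.110 in limma). Its controls read 8.24, 8.33 and 8.65 at 24 h and its DA arrays 7.86, 7.84 and 7.77. At 168 h they read 8.51, 8.30 and 8.79 against 8.26, 8.02 and 7.91, and at 48 h 8.17 and 8.14 against 8.03, 8.08 and 7.93. The groups did not overlap at any time, as for vps52, an order found for 0.129% of all probe sets. fcho2 was singled out by its p for the mean of these same contrasts, so nothing is read from this share. The mean change of fcho2 passed without DA replicate 1 at 24 h (adjusted p = 0.0469 in limma) and without DA replicate 1 at 168 h (adjusted p = 0.0176). These were the only 2 of the 17 fits with an array left out in which it passed. At 24 h rab6a, a Golgi GTPase, was at 0.44 (SE 0.23, adjusted p = 0.412 in limma). Its controls read 8.18, 7.98 and 8.24 at that time and its DA arrays 7.90, 8.87 and 8.94. DA replicate 1 thus lay below every control, and the other DA arrays lay above. Without DA replicate 1 the change was 0.77 (adjusted p = 0.0353 in limma). Of the 17 fits with an array left out, this was the only 1 in which rab6a passed at 24 h.

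**Figure D5:**
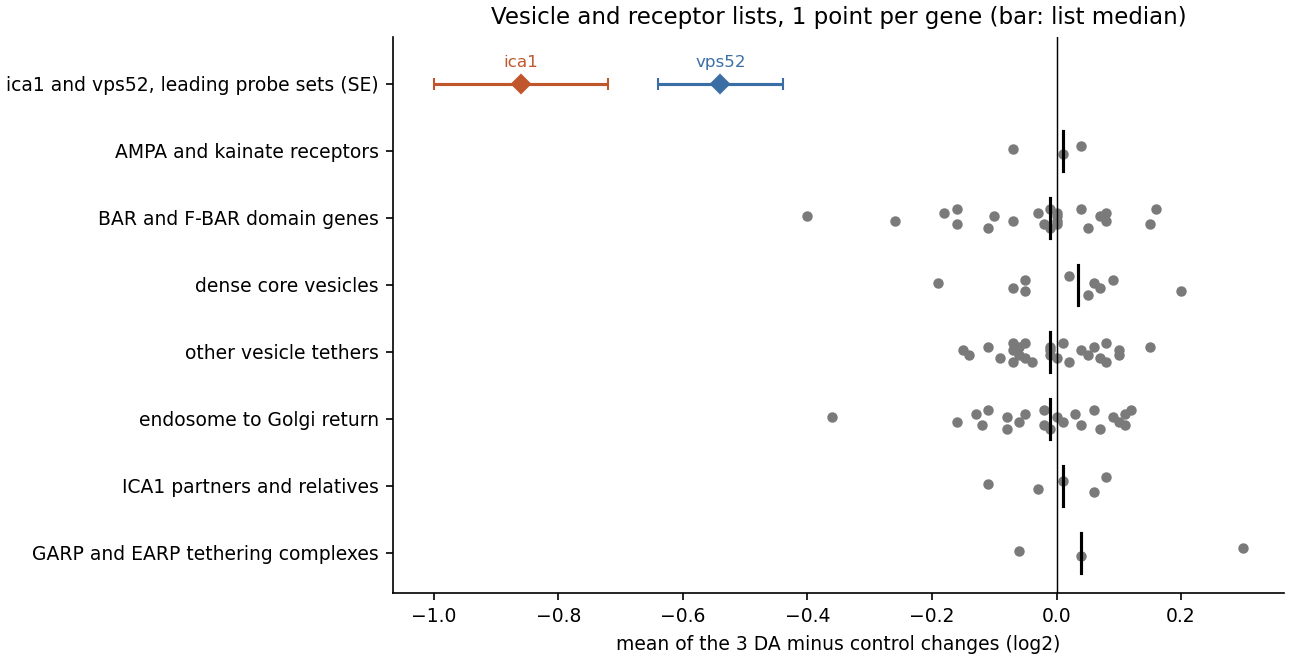
Mean of the 3 DA minus control changes (log2, x axis) for each measured gene of the 7 lists (grey points, with a bar at each list's median) and for the brighter probe sets of ica1 and vps52 with their SE. The list genes lie between -0.40 and 0.30, and ica1 and vps52, chosen for their low change, lie at -0.86 and -0.54.

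Genes next to ica1 and vps52 in the zebrafish genome were examined as well, a choice made after the values of the 2 genes were seen. Of the 5 protein-coding genes on each side of ica1 in the RefSeq annotation, 2 were measured, and their mean changes were 0.04 for mios and 0.07 for si:dkey-256h2.1. Around vps52 6 were measured, between -0.07 (p3h4) and 0.09 (clic1). rps18, the ribosomal protein gene next to vps52, was at 0.00 (SE 0.06). None of these 8 neighbours passed in limma at any time or for the mean, and the smallest adjusted p was 0.300.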

How the data were processed

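Total RNA of pooled brains was labelled with biotin and hybridised to 1-colour arrays, per the labels' protocols. The authors deposited log2 values, 1 per probe set and array, and oligo, RMA and limma are named, without versions, per the submitters' processing notes. RMA evens out the distribution of values between arrays, so a change shared by most transcripts is removed. The lowest value was 3.65 and the highest 15.0. The precision is limited by the number of arrays.

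From the 15617 probe sets, 115 manufacturer's controls were set aside and 15502 were tested with no filter. Symbols were updated through the Entrez number, found for 10711 of 10795 probe sets with 1 symbol; 135 had several symbols and 4572 none. The probe set with the highest mean stood for a gene. All 17 arrays were fitted together in limma 3.58.1 (R 4.3.3) with 1 mean per group (11 residual and 4.39 prior degrees of freedom), with Benjamini-Hochberg adjustment over all probe sets at 0.05. Deviations were tested by exact permutation within groups, 15552 arrangements. Replicate numbers were not taken as pairs: same-numbered arrays had correlations of deviations from -0.33 to 0.22. Nothing says that the pools came from separate injection rounds or tanks, so p-values measure the spread between these samples.

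The 2 genes and all lists were chosen with earlier results of these data known. Named were every probe set of both genes, every measured gene of the GARP and EARP and the ICA1 partner lists, and in other lists the 2 per direction with the smallest p for the mean. Named too were the 5 genes most like each. rab6a was named because its call changed with the setting. Alternatives were median centring, repeated quantile normalisation, removal of dim probe sets, robust variances with an intensity trend, weighting of arrays, a replicate block, fits of the compared groups alone, 3 array-quality covariates, gene means, a looser threshold and leaving out each array. Leaving out each array for the marker lists was added after seeing the data.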

Additional observations from a re-analysis of the deposited data

How the results depend on the processing

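The changes of the brighter probe sets kept their direction under every alternative run. With an array left out, ica1 ran from -1.42 to -1.09 at 24 h, -0.79 to -0.65 at 48 h, -0.80 to -0.34 at 168 h and -0.94 to -0.79 for the mean. vps52 ran from -0.79 to -0.58, -0.40 to -0.19, -0.79 to -0.51 and -0.59 to -0.50. Under the other settings ica1 ran from -1.49 to -1.08, -0.73 to -0.42, -0.73 to -0.47 and -0.93 to -0.69, and vps52 from -0.78 to -0.53, -0.34 to -0.14, -0.71 to -0.61 and -0.61 to -0.44. The 24 h change of the dimmer vps52 probe set was above 0 with array weights (0.24), the blank covariate (0.27), the GAPDH covariate (0.10) and without DA replicate 1 of that time (0.26). With the spike-in covariate it was -0.73 at 24 h and -0.80 at 48 h.

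Of the 92 list genes, the count past the threshold at 24 h was 2 when the blank level was a covariate (rab6a and fcho2), and 0 to 1 with an array left out. For the mean over the times it was 1 with array weights and 1 with the blank level, fcho2 both times, and 0 to 1 with an array left out. The cause was not tested. At 48 h and 168 h it was 0 under all alternatives run, as it was at an adjusted p under 0.1 and with gene means at every time. The adjusted p for time among controls was 0.575 to 0.972 for ica1 and 0.801 to 1.0 for vps52 in limma over these settings and each left-out array. The correlation of deviations was 0.12 to 0.57 with an array left out and 0.32 after median centring.

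With the replicate number as a block the ica1 changes were -1.31, -0.73 and -0.56 and those of vps52 -0.67, -0.32 and -0.65 at 24, 48 and 168 h, and 0 list genes passed. Over all probe sets the block moved the count from 5 to 9 at 24 h and from 0 to 12 for the mean. Of 12 arrays at 24 and 168 h, 4 correlated best with the array of their own number in the other treatment, so the numbers are not shown to pair the samples.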

Other observations

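For 20 probe sets every DA array lay below every control array of its own time at all 3 times, and 12 of them carry a single symbol. vps52 had the third lowest mean change among them, at -0.54. Below it were c1qtnf4 at -0.58 and a probe set without a symbol at -0.73. Of the other named genes, fcho2 was at -0.40, snap23.1, a SNARE gene of vesicle fusion, at -0.24, and ankrd27, whose mammalian product links Rab GTPases and retromer on endosomes, at -0.19. The kinase C gene prkcea was at -0.49, the heterochromatin protein gene cbx1b at -0.44 and the Wnt pathway scaffold axin1 at -0.24. The rest were ttc13 at -0.35, arhgdig and hic1l at -0.33 each and rmnd5b at -0.28. The share of vesicle genes among all probe sets was not counted, so no theme is read from the list. These genes were named after their values were seen, the list was drawn from the contrasts themselves, and no test of membership was made.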
